A study of Mus musculus with 6 samples.

Results

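The genes of the lipid droplet surface and of its lipases were followed in mouse heart by counting ribosome-protected fragments, the pieces of mRNA that a translating ribosome shields from nuclease. The 10 genes were the perilipins Plin2, Plin3, Plin4 and Plin5, the lipases Pnpla2, Lipe and Mgll, the lipase co-activator Abhd5, the lipase inhibitor G0s2 and the acyltransferase Dgat1. They were chosen by symbol from the 49585 gene rows of the deposited table, and all 10 were found. The PG (partial gravity) group holds 3 heart libraries of male mice kept aboard the space station at 0.167 g, the gravity of the Moon, on the bottom floor of cages spun at 31 rpm on a radius of 15 cm. The GC (ground control) group holds 3 heart libraries of male C57BL/6J mice kept at 1 g on the ground in matching conditions. The labels name no strain for PG and do not tie a library to a flight mission. Per the labels all mice were 8 or 9 weeks old, and no genetic change or drug is named for either group. PG mice flew and GC mice did not, so flight and low gravity cannot be told apart here. The labels do not say that each library is a separate animal, and p-values cover only the scatter among these 6 libraries, which may be technical.

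Heart muscle burns fatty acids and keeps a small reserve of them as triglyceride in lipid droplets. Perilipins coat the droplet and set how far lipases can reach its core. Pnpla2 (adipose triglyceride lipase) removes the first fatty acid, Lipe (hormone-sensitive lipase) the next and Mgll (monoacylglycerol lipase) the last, while Abhd5 switches Pnpla2 on and G0s2 holds it off. Plin5, the perilipin of oxidative tissue, binds both Pnpla2 and Abhd5 and lies where droplets touch mitochondria. Dgat1 makes triglyceride from diacylglycerol.

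Exon reads ran from 2416699 to 2935343 per PG library and from 2212473 to 3196070 per GC library. Lars2 and Tmem38b together held 45.5% to 52.5% of them in PG and 48.0% to 50.0% in GC, so 1105514 to 1663167 reads per library remained for all others. PG replicate 3 stood apart, with 23.9% of its exon reads in Tmem38b against at most 14.8% in the other libraries. Levels are given as CPM, exon reads scaled to a fixed total per library (counts per 1e6) after TMM adjustment between libraries. Fold changes come from edgeR's quasi-likelihood test over all 9124 tested genes, with Benjamini-Hochberg adjustment over all of them and 0.05 as the threshold. No RNA-seq was used beside these libraries, so mRNA level and translation cannot be told apart. Nor can fewer cells of a type be told apart from less RNA per cell.

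Of the 10 genes, Plin5 fell in PG hearts and the other 9 did not pass the test. Over all genes tested 0.581% passed, 0.329% as lower and 0.252% as higher in PG. In limma-voom, where 0.877% of genes passed, Plin5 was again the only member called. DESeq2, where 5.71% of genes with an adjusted p passed, called Plin5 among the 6 members it gave one, and gave none to Lipe, Abhd5, G0s2 and Dgat1. The 4 perilipins had negative log2 fold changes, as did Mgll, Abhd5 and G0s2, and the remaining 3, Pnpla2, Lipe and Dgat1, had positive ones. The median over the 10 was -0.28 on the log2 scale, beside -0.0017 over all tested genes. The groups stood fully apart for 5 of the 10, with Plin3, Plin5, Mgll and Abhd5 lower and Lipe higher in PG. Among all tested genes 16.3% did not overlap, 8.25% on the lower side and 8.06% on the higher side.

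**Figure D1:**
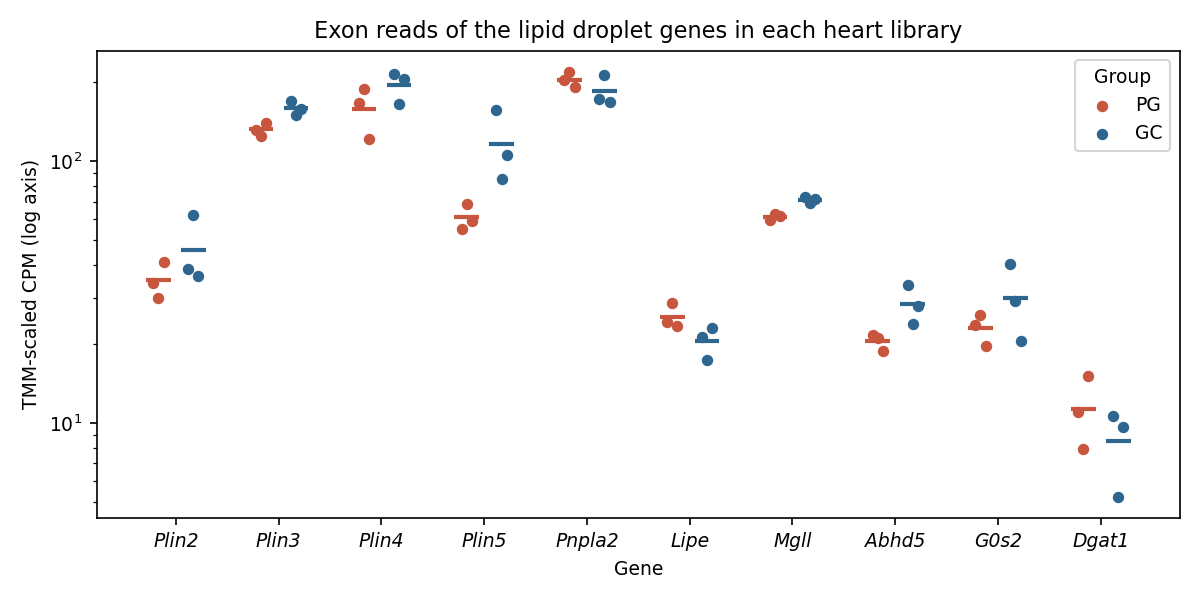
TMM-scaled CPM of exon reads (log axis) for each of the 10 genes, with PG in red left of GC in blue; points are the 3 libraries of a group and bars their means. The 3 Plin5 points of PG lie between 54.9 and 68.8 CPM, below all 3 of GC, while those of Plin2, Plin4, Pnpla2, G0s2 and Dgat1 overlap.

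Plin5 (ENSMUSG00000011305) lies at chr17:56111601-56117596 in the files' coordinates, for which the submitters' processing notes list GRCm38 and mm10. It stood at 54.9, 68.8 and 59.2 CPM in PG replicates 1, 2 and 3, against 157, 85.7 and 105 CPM in GC replicates 1, 2 and 3. The PG libraries were tightly grouped and the GC libraries were not, with GC replicate 1 far above the other 2. The means were 60.9 ± 7.10 CPM in PG and 116 ± 36.9 CPM in GC (SD, n = 3 each). Plin5 was 1.89-fold lower in PG, with a log2 fold change of -0.92 ± 0.19 (SE; 95% interval -1.30 to -0.54) and an edgeR adjusted p of 0.0173. By its unadjusted p it ranked 24 among the 9124 genes. These values rest on 165, 216 and 126 exon reads in PG and 326, 197 and 338 in GC, and 1367 of these 1368 reads fit a single place in the genome. The call depended on single libraries. The edgeR adjusted p was 0.117 without GC replicate 1, 0.0952 without PG replicate 1 and 0.0663 without PG replicate 3, and the log2 fold change without GC replicate 1 was -0.65. In the authors' deposited table the signed fold change of Plin5 is -1.89, with an unadjusted p of 0.000486 and a false discovery rate of 0.262. That table gives a false discovery rate for 49585 rows, 31 of them under 0.05. The edgeR adjustment here ran over 9124 genes, but the unadjusted p of Plin5 also differed, at 4.56e-05 in the edgeR fit. What set the authors' test and the edgeR fit apart was not tested.

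Plin5 fragments across exon-exon junctions were few. There were 12, 8 and 0 in the PG replicates, against 33, 7 and 26 in the GC replicates. PG replicate 3 therefore had 0 among 126 unique exon reads, which allows a share of up to 2.38% by counting error alone. Junction reads made up 3.94% of unique Plin5 exon reads over PG and 7.67% over GC. By library the Plin5 shares overlapped, at 7.27%, 3.70% and 0% in the PG replicates and 10.1%, 3.55% and 7.72% in the GC replicates. For Pnpla2 the shares summed over a group were 26.8% in PG and 22.0% in GC, and for Plin3 21.6% in PG and 21.7% in GC. Intron reads were at most 3 in any library for Plin5.

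Of the adipocyte genes, Adipoq, Plin1, Cidec and Ucp1 had few or no reads, while Cidea, Cfd and Fabp4 had reads in every library. Over all 3 libraries of a group, the adipocyte hormone gene Adipoq had 4 reads in PG and 3 in GC. The adipocyte perilipin gene Plin1 had 6 in PG and 0 in GC, its partner Cidec 8 in PG and 0 in GC, and the brown fat gene Ucp1 was at 0 in both. Cidea, a droplet fusion gene and also a listed adipocyte marker, had 86 reads in PG and 76 in GC. Among other listed markers, named after their values were seen, Cfd had 20 reads in PG and 29 in GC. Retn had 2 in PG and 2 in GC, and Lep 1 in PG and 0 in GC. The 14 listed adipocyte markers summed to 179 to 212 CPM in PG and 260 to 281 CPM in GC, a sum made mostly of Fabp4, which endothelial cells also express (164 ± 22.3 CPM in PG and 228 ± 5.42 CPM in GC, SD, n = 3). Of these 14, Acvr1c and Ucp1 were at 0 in all libraries. Cardiomyocyte markers also lay lower in PG. The 12 ventricular markers summed to 45888 to 53303 CPM in PG and 55853 to 64290 CPM in GC, and their part in the lower Plin5 level was not tested. None of the 12 was at 0, and 11 had negative log2 fold changes and 1 a positive one. Endothelial markers summed to 547 to 610 CPM in PG and 618 to 680 CPM in GC. Fibroblast markers summed to 553 to 560 CPM in PG and 590 to 649 CPM in GC. Both sums were also lower in all PG libraries. The endothelial sum again counts Fabp4, and a sum without this gene was not tested. Its means were 585 CPM in PG and 642 CPM in GC, beside 164 and 228 CPM for Fabp4 alone. Of the endothelial genes 5 lay lower and 3 higher in PG, and their median was -0.02 on the log2 scale. Macrophage markers (201 to 276 CPM in PG and 270 to 304 CPM in GC) and atrial markers (1212 to 1509 CPM in PG and 1337 to 1951 CPM in GC) overlapped.

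The other 3 perilipins had smaller log2 fold changes than Plin5 and did not pass the test. Plin3 (ENSMUSG00000024197, chr17:56278962-56290511), a perilipin made in most tissues, stood at 132, 124 and 140 CPM in the PG replicates, against 170, 150 and 158 CPM in the GC replicates. All PG values lay below all GC values, yet its log2 fold change of -0.27 ± 0.13 (SE) had an edgeR adjusted p of 0.491. Plin4 (ENSMUSG00000002831, chr17:56100591-56109803), a long perilipin of muscle and fat, had 166, 189 and 121 CPM in PG and 215, 165 and 205 CPM in GC. Its groups overlapped, and PG replicate 3 was the lowest of the 6 libraries. The log2 fold change of Plin4 was -0.29 ± 0.15 (SE), with an edgeR adjusted p of 0.525, and -0.14 without PG replicate 3. Plin2 (ENSMUSG00000028494, chr4:86648386-86670060), the perilipin that accumulates with stored fat in many cells, had 34.3, 29.9 and 41.3 CPM in PG and 38.5, 62.2 and 36.4 CPM in GC. One library, GC replicate 2, carried most of that gap: the log2 fold change was -0.38 ± 0.22 (SE) on all libraries and -0.10 without GC replicate 2. The liver markers stood at 7.003 to 19.6 CPM in PG and, in GC replicates 1, 2 and 3, at 30.3, 153 and 21.1 CPM; their part in the Plin2 value was not tested. The spans of Plin4 and Plin5 do not overlap and lie 1797 bases apart. Both genes are on the minus strand per RefSeq, so this gap runs from the 3′ end of Plin5 to the start of Plin4.

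**Figure D2:**
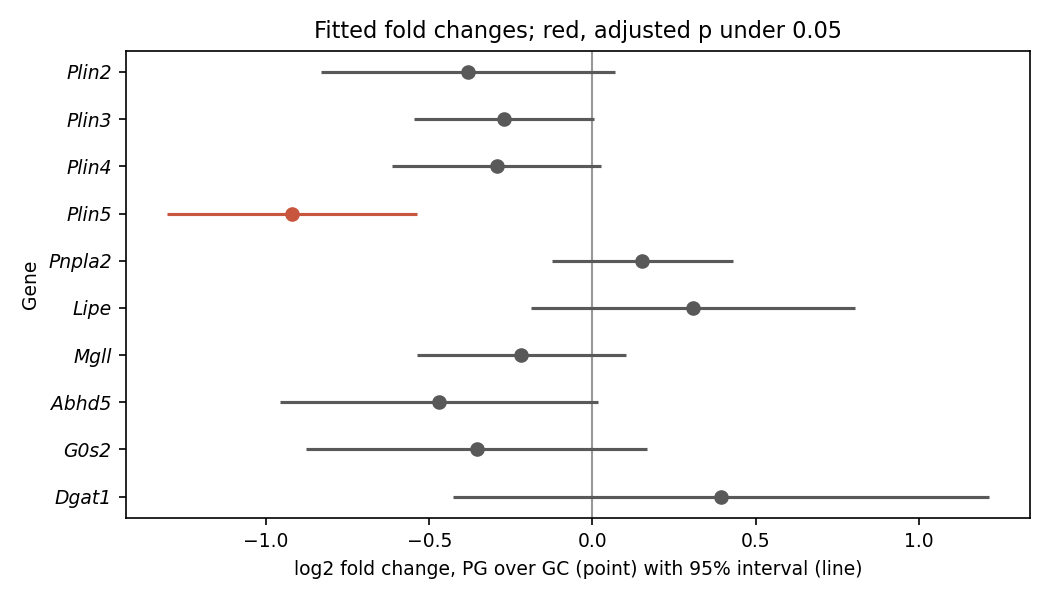
Log2 fold change of PG over GC for each gene (point) with its 95% interval from the quasi-likelihood fit (line); red marks an adjusted p under 0.05. The interval of Plin5, -1.30 to -0.54, lies wholly below 0 and those of the other 9 genes include 0.

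Per length of exon the perilipins took different shares of the coat's fragments. The 4 together summed to 128 ± 3.34 CPM per kb of exon in PG and 176 ± 23.2 in GC (SD, n = 3 each). Of this sum Plin3 made up 43.7% to 51.6% in PG and 38.9% to 44.3% in GC. Plin5 made up 20.9%, 25.0% and 22.5% in PG replicates 1, 2 and 3, against 37.2%, 26.2% and 29.7% in GC replicates 1, 2 and 3. The highest PG share of Plin5 lay just under the lowest GC share. Plin4 held 16.6% to 24.8% in PG and 18.2% to 21.0% in GC, and Plin2 6.46% to 9.33% in PG and 5.43% to 11.3% in GC. Exon length includes untranslated ends, where few ribosomes sit, so genes with long ends are understated on this scale.

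**Figure D3:**
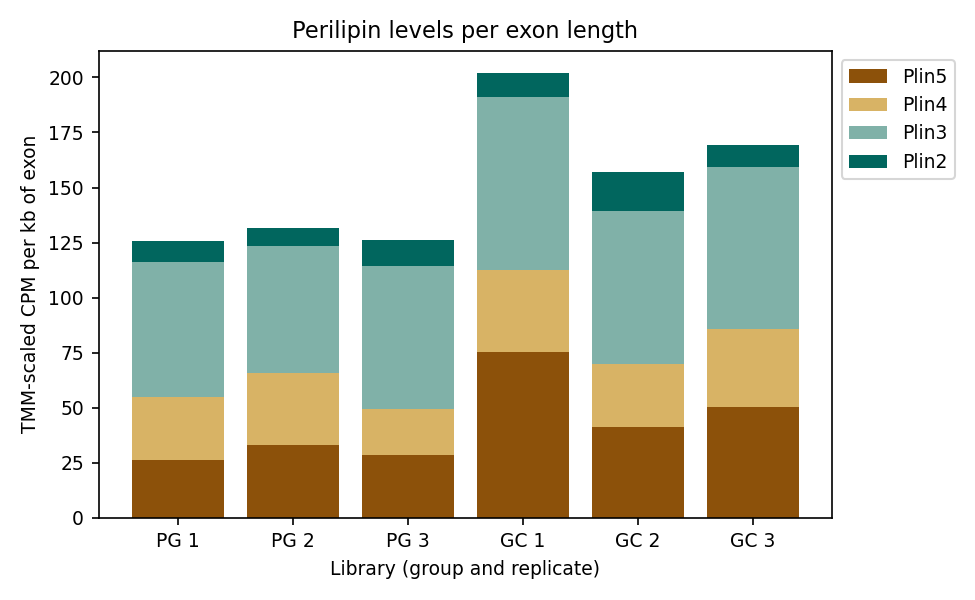
Stacked bars of TMM-scaled CPM per kb of exon for Plin5, Plin4, Plin3 and Plin2 in each library, PG replicates left of GC replicates. The PG bars reach 126 to 132 CPM per kb and the GC bars 157 to 202. The Plin5 segment is taller in GC replicate 1 than in any other library.

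Pnpla2, the lipase that opens triglyceride breakdown, did not pass the test and had a small positive log2 fold change. Pnpla2 (ENSMUSG00000025509, chr7:141455198-141460743) had 203, 219 and 192 CPM in PG and 172, 212 and 169 CPM in GC. The groups overlapped through GC replicate 2. Its log2 fold change was 0.15 ± 0.13 (SE), with a 95% interval of -0.12 to 0.43 and an edgeR adjusted p of 0.757. All of its 3097 exon reads fit a single place.

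Abhd5, the co-activator of Pnpla2 that Plin5 binds, lay lower in all 3 PG libraries. Abhd5 (ENSMUSG00000032540, chr9:122351608-122381524) had 21.6, 21.0 and 18.8 CPM in PG and 33.7, 23.9 and 28.0 CPM in GC. The log2 fold change was -0.47 ± 0.24 (SE; 95% interval -0.96 to 0.02), and the edgeR adjusted p was 0.499. On the 79.0% of its reads that fit a single place, the log2 fold change was -0.58 with an unadjusted p of 0.0409 and an adjusted p of 0.436 (edgeR).

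Mgll, which releases the last fatty acid, had little scatter within either group. Mgll (ENSMUSG00000033174, chr6:88724412-88828360) had 59.5, 62.7 and 61.5 CPM in PG and 72.7, 69.2 and 71.8 CPM in GC. The groups did not overlap, but the difference was small. The log2 fold change was -0.22 ± 0.16 (SE) and the edgeR adjusted p was 0.679. Dgat1 (ENSMUSG00000022555, chr15:76502015-76511951), which makes triglyceride, had the fewest reads, 33, 25 and 32 in PG and 22, 12 and 31 in GC. Its log2 fold change of 0.39 ± 0.40 (SE) had a 95% interval of -0.43 to 1.21, so this depth could not separate a sizeable rise from none.

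Reads of 2 members mostly fit several places. Lipe (ENSMUSG00000003123, chr7:25379527-25398710) had 24.3, 28.6 and 23.5 CPM in PG and 21.2, 17.4 and 23.0 CPM in GC, higher in all 3 PG libraries. Its log2 fold change was 0.31 ± 0.24 (SE), with an edgeR adjusted p of 0.719. Only 18.3% of its exon reads were unique, and 67 of those 68 unique reads crossed an exon-exon junction. G0s2 (ENSMUSG00000009633, chr1:193272161-193273217) had 23.6, 25.8 and 19.7 CPM in PG and 40.5, 29.2 and 20.5 CPM in GC. The groups overlapped, and the log2 fold change was -0.35 ± 0.25 (SE) with an edgeR adjusted p of 0.681. Without GC replicate 1 it was -0.08. Of its 411 exon reads 6 were unique, 0 in PG and 3, 2 and 1 in the GC replicates. The levels of both genes on all reads are therefore uncertain. The authors' deposited table gives both a false discovery rate of 1. Its signed fold change for Lipe is 1.47. For G0s2 it is -18.1, with an unadjusted p of 0.0437 in the authors' test, against 1.28-fold lower in the edgeR fit on all reads. The authors' expression values for G0s2, also counts, equal its unique reads, 0 in each PG library and 3, 2 and 1 in the GC replicates. The authors' fold and the edgeR fold are therefore not set on a like footing.

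**Figure D4:**
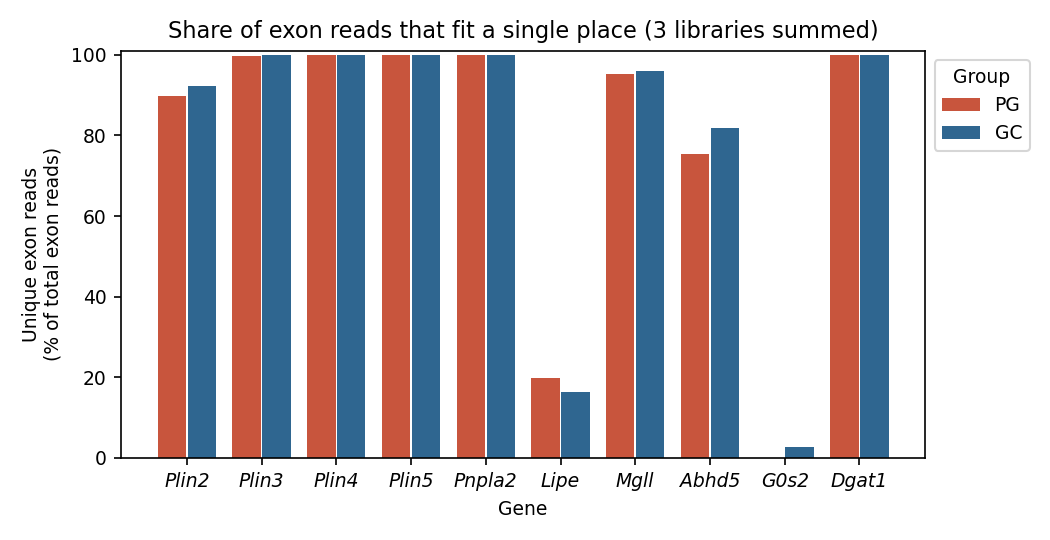
Unique exon reads as a percent of all exon reads of each gene, summed over the 3 PG libraries (red, left) and the 3 GC libraries (blue, right). Lipe stands at 19.7% in PG and 16.5% in GC and G0s2 at 0% in PG and 2.76% in GC, while the other 8 genes exceed 75%.

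The low unique shares were not limited to Lipe and G0s2. Ceacam1, the next gene along chromosome 7 with at least 50 exon reads, had 10 unique reads of 179, all across junctions. Beside G0s2, Hsd11b1 had 14 unique reads of 75, again all across junctions. Among all tested genes 7.91% had under 20% unique reads. G0s2 also lies inside the annotated span of Lamb3, and no source used here says if reads were counted by strand. These neighbours were named after their values were seen.

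Ordered by level per kb of exon, Pnpla2 and Plin3 led in both groups and Lipe and Dgat1 came last. In PG the levels were 67.8 ± 4.48 CPM per kb for Pnpla2, 61.2 ± 3.70 for Plin3, 29.2 ± 3.40 for Plin5, 27.5 ± 5.96 for Plin4 and 26.5 ± 3.53 for G0s2 (SD, n = 3). In GC they were 73.8 ± 4.52 CPM per kb for Plin3, 61.1 ± 8.01 for Pnpla2, 55.6 ± 17.7 for Plin5, 34.5 ± 11.5 for G0s2 and 33.8 ± 4.58 for Plin4 (SD, n = 3). In PG the library ranges of Pnpla2 and Plin3, of Plin5 and Plin4, and of Plin4 and G0s2 overlapped, and those of Plin3 and Plin5 did not. In GC every neighbouring pair among these 5 genes overlapped. Most reads of G0s2 and Lipe fit several places, so the places of both genes in this order are uncertain. Below these came Mgll at 12.1 ± 0.31 in PG and 14.03 ± 0.36 in GC, and Plin2 at 10.01 ± 1.64 in PG and 13.0 ± 4.09 in GC, whose ranges overlapped in both groups. Abhd5 followed at 5.63 ± 0.41 CPM per kb in PG and 7.85 ± 1.35 in GC. Lipe had 4.33 ± 0.47 in PG and 3.49 ± 0.48 in GC, and Dgat1 had 3.71 ± 1.16 in PG and 2.78 ± 0.94 in GC, with ranges that overlapped in both groups.

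Ratios between members within a library need no scaling between libraries. Per Pnpla2 read there were 0.270, 0.314 and 0.308 Plin5 reads in PG replicates 1, 2 and 3, against 0.911, 0.404 and 0.622 in GC replicates 1, 2 and 3. The ratio was thus lower in every PG library, 2.05-fold on average (difference in mean log2 ratio -1.04, n = 3 each). Abhd5 reads per Pnpla2 read were 0.106, 0.0959 and 0.0978 in PG and 0.196, 0.113 and 0.166 in GC, 1.53-fold lower in PG. G0s2 reads per Pnpla2 read were 0.116, 0.118 and 0.103 in PG and 0.235, 0.137 and 0.122 in GC, but these rest on reads that fit several places. That difference was -0.48 on the log2 scale, and -0.20 without GC replicate 1. Plin5 also lay lower in every PG library relative to Abhd5 (difference -0.42) and relative to Plin4 (-0.57), while relative to Plin2 (-0.54) the groups overlapped. On unique reads the groups overlapped for Plin5 over Abhd5 too (difference -0.34, exact permutation p of 0.2). Each of the 5 ratios without overlap had a two-sided exact permutation p of 0.1, the smallest that 3 against 3 allow, and 0.12 after adjustment over the 6 ratios. For Plin5 over Plin2 the exact permutation p was 0.4, adjusted 0.4. With 3 libraries a group this exact permutation test cannot reach 0.05.

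**Figure D5:**
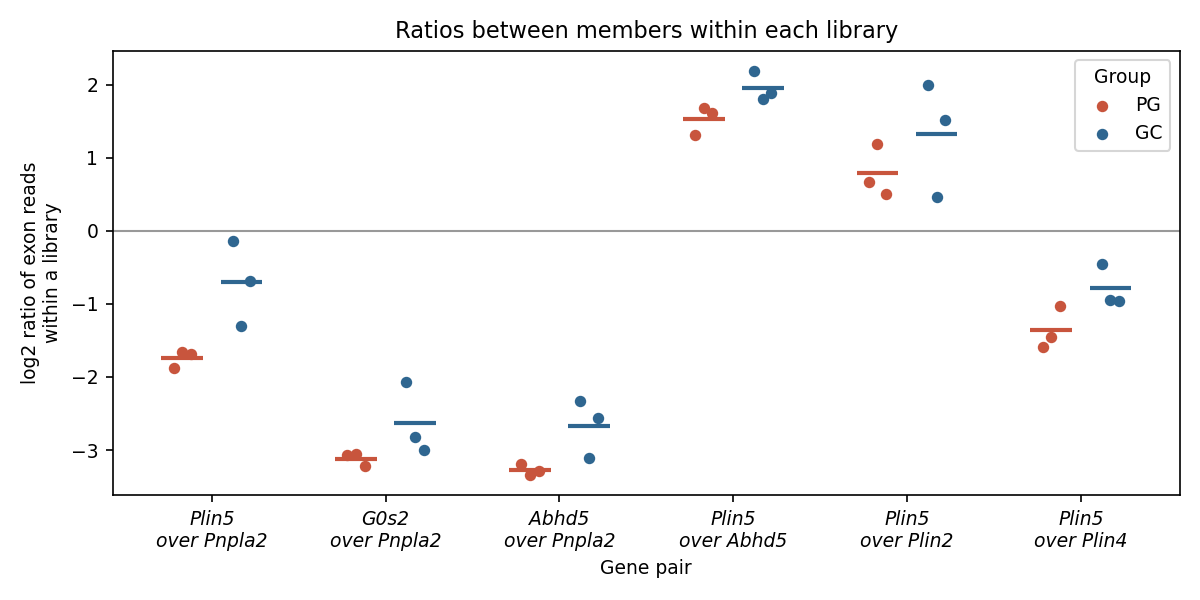
Log2 ratio of exon reads of 2 members within each library, with 2 reads added to both, PG in red left of GC in blue; bars are group means of 3 libraries. Plin5 over Pnpla2 lies at -1.88 to -1.66 in PG and -1.30 to -0.13 in GC, and the groups overlap for Plin5 over Plin2 alone.

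The promoters of Plin5, Abhd5 and Pnpla2 are shown because Plin5 was the gene that fell, and the other two encode the partners it binds. PPARA, a fatty acid receptor of heart muscle known to raise Plin5, binds pairs of AGGTCA-like half-sites set a single base apart. The sequences are RefSeq's for GRCm38.p6, the 250 bases before the listed start site, 5′ to 3′ along the gene, with AGGTCA on either strand in capitals.
Plin5, chr17:56117549-56117798, minus strand: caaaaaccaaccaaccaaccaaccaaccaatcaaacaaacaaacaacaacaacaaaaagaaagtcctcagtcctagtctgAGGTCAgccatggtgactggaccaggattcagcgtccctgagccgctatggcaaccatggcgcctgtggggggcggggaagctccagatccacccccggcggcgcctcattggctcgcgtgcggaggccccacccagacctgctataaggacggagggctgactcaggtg
Abhd5, chr9:122351366-122351615, plus strand: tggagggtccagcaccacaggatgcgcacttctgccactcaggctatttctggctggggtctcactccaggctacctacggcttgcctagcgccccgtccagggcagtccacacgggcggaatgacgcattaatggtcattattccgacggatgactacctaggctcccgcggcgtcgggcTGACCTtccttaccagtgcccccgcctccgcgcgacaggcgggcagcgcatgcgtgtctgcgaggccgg
Pnpla2, chr7:141454938-141455187, plus strand: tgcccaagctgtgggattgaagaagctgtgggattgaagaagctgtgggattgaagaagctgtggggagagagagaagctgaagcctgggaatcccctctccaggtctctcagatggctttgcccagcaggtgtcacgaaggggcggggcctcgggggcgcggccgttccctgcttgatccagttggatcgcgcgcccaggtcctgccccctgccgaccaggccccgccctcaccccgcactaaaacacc
The half-site AGGTCA begins 170 bases before this Plin5 start, is read on the opposite strand from 69 bases before the Abhd5 start, and has no match in the Pnpla2 window. The other window listed for Plin5, chr17:56117299-56117548, holds none. Of the 12 windows listed for 9 members (Dgat1 was not matched), only 1 further window holds it, that of Plin2, which starts 218 bases before the start site. Over all promoter windows of this length 14.04% hold AGGTCA. The paired form, AGGNCA followed after any single base by AGGNCA on either strand, is in 0.341% of all windows and in none of the 12.

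Other genes of the pathway were counted from lists. Of 16 listed genes of droplet formation and coat 11 were tested; 0 passed in edgeR, 1 was lower at an unadjusted p under 0.05 and the median log2 fold change was -0.13. Among its most abundant members, Fitm2, which helps droplets bud from the endoplasmic reticulum, had 149 ± 4.15 CPM in PG and 146 ± 12.4 in GC. Its muscle-enriched relative Fitm1 had 37.3, 39.2 and 48.4 CPM in PG and 61.7, 73.6 and 60.3 in GC. The Fitm1 groups did not overlap, and its log2 fold change of -0.65 had an edgeR adjusted p of 0.0974. Of 17 genes of triglyceride synthesis 12 were tested; 0 passed in edgeR, and 0 did so at an unadjusted p under 0.05, with a median of -0.10. Lpin1, which makes diacylglycerol, had 159 ± 19.4 CPM in PG and 178 ± 7.46 in GC, and the acyltransferase gene Agpat3 152 ± 27.3 in PG and 177 ± 18.8 in GC (SD, n = 3). Dgat2, the other enzyme that performs the step of Dgat1 and named after its values were seen, had 142 ± 17.9 CPM in PG and 170 ± 29.0 in GC (SD, n = 3).

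Among the 10 tested of 18 listed genes of other lipases and lipolysis, Ces1d fell and none passed as higher. At an unadjusted p under 0.05 the list held 2 higher genes and 1 lower. The higher ones, named after their values were seen, were the lipoprotein lipase gene Lpl, with 2929, 2973 and 3568 CPM in PG and 2291, 2398 and 2423 CPM in GC (edgeR adjusted p of 0.119), and the protein kinase A subunit gene Prkar1a (edgeR adjusted p of 0.439). Ces1d, a carboxylesterase that hydrolyses triglyceride in fat and liver, had 67.2, 59.8 and 75.1 CPM in PG and 110, 124 and 93.5 CPM in GC. It was 1.62-fold lower, with a log2 fold change of -0.70 and an edgeR adjusted p of 0.0341. The 10 liver markers summed to 7.003 to 19.6 CPM in PG and 21.1 to 153 CPM in GC, highest in GC replicate 2, and the 8 kidney markers to 0.637 to 11.7 CPM in PG and 36.4 to 41.9 CPM in GC. Their part in the lower Ces1d level was not tested. The list's median was -0.02.

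Of 25 PPARA targets of heart, all tested, Pdk4 fell and 23 did not pass, with a median log2 fold change of -0.04. Pdk4, a kinase that turns off pyruvate dehydrogenase, had 148, 128 and 82.2 CPM in PG and 309, 346 and 325 CPM in GC (log2 fold change -1.44, edgeR adjusted p of 1.30e-05). At an unadjusted p under 0.05, 2 of the 25 lay higher and 9 lower. Of all tested genes 10.4% met that bound, 4.82% as higher and 5.62% as lower. Of 15 listed genes that bring fatty acids to droplet and mitochondrion 13 were tested and 0 passed in edgeR; the unadjusted p was under 0.05 for 2 higher and 2 lower genes. Its most abundant members were the fatty acid transporter gene Cd36 (952 ± 56.7 CPM in PG and 899 ± 119 in GC) and the mitochondrial fusion gene Mfn2 (577 ± 44.5 in PG and 578 ± 8.86 in GC; SD, n = 3).

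Across the 6 libraries, the genes whose log2 CPM most resembled that of Plin5 were Tmem14c (Pearson r = 0.990), 0610009O20Rik (0.979) and Stard7 (0.965). The 6 points share their libraries and the split into 2 groups, and 45 of 1592 genes with a mean of at least 50 CPM had an r above 0.9. Stard7, a carrier of phosphatidylcholine to mitochondria, had 85.5 to 102 CPM in PG and 126 to 158 CPM in GC. Its edgeR adjusted p was 0.0674.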

How the data were processed

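Hearts were flash frozen and lysed, the lysate was cleared of nuclei, debris and mitochondria, and fragments of 25 to 35 nt left by RNase I were sequenced, per the labels' protocols. Per the file headers, the authors deposited counts of exon, junction and intron reads per gene, each as unique or total reads, and an expression value that is also a count. The authors' test of PG against GC (per the file headers, EDGE) has p-values, corrected p-values and a signed fold score, with negative values meaning lower in PG; exon length is also theirs. The sources used here name no aligner or counter; the submitters' processing notes list GRCm38 and mm10. Another 60 columns of per-library values stayed unused.

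The main test ran on total exon reads in edgeR 4.0.16 under R 4.3.3 (filterByExpr with a minimum count of 10, TMM, glmQLFit, glmQLFTest, group as the only term); 9124 of 16855 genes with reads were tested, all 10 members among them. SEs come from the F statistic. Intervals for shares at 0 use 3 counts, and read counts carry PCR duplicates. Starts were shifted to count from 1. On counts simulated from these libraries for PG against GC (5 runs, about 8850 genes tested, 200 changed), the test called 19.4% of 1.5-fold, 56.1% of 2-fold and 95.4% of 4-fold changes, and 4.55% of calls were false. The changed genes were drawn only from those at or above a set mean read count, so recovery at lower counts was not measured. Libraries of a group differed by more than counting noise (chi-square of 2.78 to 4.98 per degree of freedom), so none was treated as a second deposit of the same counts; separate preparations of the same heart would differ so too. Deviations of same-numbered libraries from their group means correlated at -0.032 to -0.0083. With 3 libraries a group, such correlations cannot settle whether equal numbers pair samples. The main fit held no pairing term, and a fit with the replicate number as a block is given below. Genes named are all members, up to 3 called genes per list or else its 2 most abundant, the 3 genes most like a called member, and set adipocyte markers; a gene that these rules name is not reported here. Members and lists were chosen with earlier results of these data known. Levels per length used exon length, since no coding length was used here. DESeq2 1.42.0 and limma 3.58.1 (voom) were among the alternatives.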

Additional observations from a re-analysis of the deposited data

How the results depend on the processing

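The log2 fold change of Plin5 was negative in all 15 other settings, from -1.10 to -0.65, and passed the threshold in 11, with adjusted p-values of 2.20e-05 to 0.117. The number of the 10 genes called was 1 in those 11 and 0 in the other 4, namely without PG replicate 1, PG replicate 3 or GC replicate 1, and with the replicate number as a block (Plin5 adjusted p of 0.117 in edgeR); over the fits that left out a library it ran from 0 to 1. No other member passed in the settings where it had an adjusted p, and each kept its sign there; Lipe, Abhd5, G0s2 and Dgat1 had none in DESeq2, and G0s2 had none on unique reads or expression values. Over all genes the count of calls was 53 (23 higher, 30 lower), and 90 on unique reads, 88 on the authors' expression values, 181 with no filter, 127 in DESeq2 (of 2225 genes given an adjusted p), 80 in limma-voom, 22 with the replicate block, 41 (25 higher, 16 lower) with library size alone and 19 to 102 with a library left out (leaving out PG replicate 1 gave 25, PG replicate 2 gave 26, GC replicate 2 gave 19 and GC replicate 3 gave 102). The cause of these shifts was not tested. The ratios kept their sign in the 8 other settings, but for G0s2 over Pnpla2 on unique reads (-1.25) the value is set by the added reads, since G0s2 had 0 in PG. Plin5 over Abhd5 overlapped on unique reads, and Plin5 over Plin2 was -0.20 without GC replicate 1. Coding length as an alternative to exon length was not run. Most 1.5-fold changes would be missed at this depth.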
